A study of Mus musculus with 2 samples.

Results

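This account covers 33 genes of cholesterol and fatty acid synthesis in the mouse thymus. They were chosen by name, as a list of SREBP pathway regulators, sterol enzymes and fatty acid enzymes, and all 33 were matched by gene identifier among the 43346 genes of both expression tables. The samples are 2 RNA-seq libraries of thymus from C57BL/6J mice aged 8 weeks, labelled biological replicates 1 and 2 of 1 group. The tissue came from littermates with males and females pooled, and no genotype, treatment or second condition separates them. The labels give a separate biosample for each library but a single donor entry for both, so the spread between libraries may be technical in part. Depth was 49.3 M fragments (M for 1000000), as estimated by the authors, for replicate 1, against 63.1 M for replicate 2, and intervals below cover counting error only. With 1 library on each side, no test between the replicates was made. Thymocyte genes were abundant, with Tcf7, Lck and Cd8b1 at 2747, 1327 and 586 TPM in replicate 1 and 2299, 1454 and 669 TPM in replicate 2. TPM is the deposited abundance, divided by transcript length and scaled to an equal total in each library.

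Cells build cholesterol from acetyl-CoA through mevalonate and squalene, and build fatty acids from the same precursor through malonyl-CoA. Both routes are controlled by the SREBP transcription factors, which sit in the endoplasmic reticulum with the escort protein Scap. When sterols are scarce, Scap carries SREBP to the Golgi, where proteases release its active part. When sterols are plentiful, Insig proteins hold Scap back. Dividing cells need new membrane lipid, while fat cells make fatty acids for storage, and a whole thymus holds dividing thymocytes as well as stroma and adjoining fat. In bulk tissue, fewer cells of a type and less RNA per cell cannot be told apart.

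Promoter sequences are shown first for 4 starts, because SREBP is known to act at promoters beside NF-Y, which binds the CCAAT box, and Sp1, which binds the GC box. Each sequence is the 250 bases before an annotated RefSeq start on GRCm38.p6, read 5′ to 3′ on the strand of the gene. Capitals mark matches on either strand to the sterol element TCACNCCAC, the CCAAT box CCAAT and the GC box GGGCGG. Hmgcs1 (chr13:119690101-119690350, + strand) makes the precursor of mevalonate and was the only one of 27 members with a window that held a sterol element. Mvk (chr5:114444019-114444268, + strand), mevalonate kinase, held 5 CCAAT boxes, the most of any member. Fasn (chr11:120824548-120824797, - strand) was the member with the highest TPM. Srebf1 (chr11:60220628-60220877, - strand) encodes SREBP-1, and the start shown, at position 60220627, lies near that of its complete coding transcript at 60220604.
Hmgcs1: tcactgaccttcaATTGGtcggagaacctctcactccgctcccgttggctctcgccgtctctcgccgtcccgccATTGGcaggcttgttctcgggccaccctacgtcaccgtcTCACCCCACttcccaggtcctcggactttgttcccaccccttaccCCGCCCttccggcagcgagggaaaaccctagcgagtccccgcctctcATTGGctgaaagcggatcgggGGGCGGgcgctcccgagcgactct
Mvk: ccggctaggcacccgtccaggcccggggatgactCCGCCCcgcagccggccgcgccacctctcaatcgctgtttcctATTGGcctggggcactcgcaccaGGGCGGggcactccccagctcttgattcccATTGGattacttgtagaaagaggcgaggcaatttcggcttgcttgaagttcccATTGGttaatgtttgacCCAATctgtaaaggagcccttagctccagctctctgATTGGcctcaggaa
Fasn: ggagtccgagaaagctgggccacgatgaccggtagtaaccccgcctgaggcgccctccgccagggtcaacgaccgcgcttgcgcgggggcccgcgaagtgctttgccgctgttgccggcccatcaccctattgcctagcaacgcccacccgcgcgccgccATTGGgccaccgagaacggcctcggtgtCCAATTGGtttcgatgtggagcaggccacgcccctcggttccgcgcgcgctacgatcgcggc
Srebf1: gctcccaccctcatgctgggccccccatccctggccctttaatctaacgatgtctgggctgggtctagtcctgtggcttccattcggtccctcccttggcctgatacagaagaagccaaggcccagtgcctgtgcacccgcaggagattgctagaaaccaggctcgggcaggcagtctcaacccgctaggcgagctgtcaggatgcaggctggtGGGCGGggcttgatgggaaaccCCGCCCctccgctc

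RefSeq windows, from 250 bases before to 50 bases after a start, were at hand for 27 of the 33 members. Some members have several starts, and 36 windows were searched. A CCAAT box was present in 23 of the 27 genes (85.2%), against 42.3% of 10149 protein-coding genes at 1 TPM or more and 41.1% of 27025 genes with a window. All 14 sterol enzyme genes with a window held one, as did 9 of the other 13 members. Of the member windows, 7 held 3 or more CCAAT boxes, against 3.37% of all windows. A GC box was present in 21 of 27 members (77.8%), against 67.2% of the protein-coding genes at 1 TPM or more. The sterol element was present in 1 of 27 members (3.70%), against 1.44% of those genes. Acaca and Elovl6 had no match to any of the 3 motifs, which says only that these letters are not in these windows. In member windows, matches of different motifs overlapped once. These counts describe sequence and do not show binding in the thymus.

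**Figure D1:**
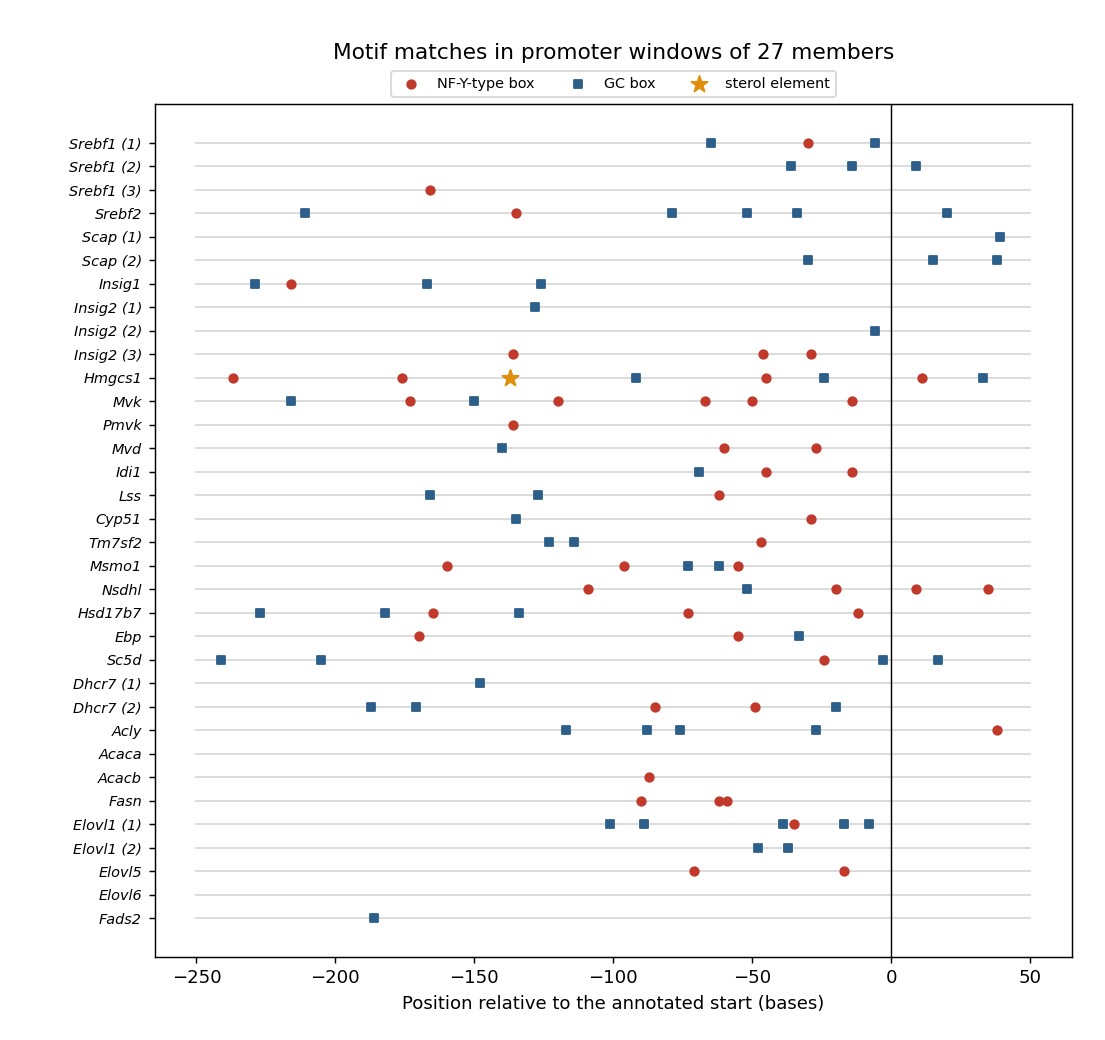
Positions of CCAAT boxes (NF-Y-type box, circles), GC boxes (squares) and the sterol element (star) in promoter windows, in bases from the annotated start. Starts without a match are left out, except for Acaca and Elovl6, which have none; genes with several starts are numbered. All 14 sterol enzyme genes shown, from Hmgcs1 to Dhcr7, have at least 1 circle.

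Every member was detected in both thymus libraries. All 33 reached a mean of 1 TPM, a level passed by 33.1% of all genes and by 12949 of 21474 protein-coding genes. Of the members, 25 reached 10 TPM, a level passed by 36.2% of protein-coding genes. The members' median of mean TPM was 27.3, beside 15.5 for the protein-coding genes at 1 TPM or more. Summed over the members, the share of TPM was 0.369% for replicate 1, against 0.256% for replicate 2. Fatty acid enzymes (11 genes) made up most of this, with a summed 2384 TPM in replicate 1 and 1462 TPM in replicate 2. Fasn alone gave 1368 and 708 TPM of these sums, and the other 10 gave 1016 and 754 TPM. The 17 sterol enzymes summed to 578 and 498 TPM in replicates 1 and 2, and the 5 regulators to 731 and 597 TPM.

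Among the regulators, Srebf1, whose products include the main activators of fatty acid genes, had 433 TPM in replicate 1 and 365 TPM in replicate 2. Srebf2, the SREBP gene tied mainly to cholesterol synthesis, had 174 TPM in replicate 1 and 138 TPM in replicate 2. Scap, the escort, had 58.5 TPM in replicate 1 and 43.4 TPM in replicate 2. Within each library, all 3 stood above both retention genes by their TPM estimates. Insig1, itself a known SREBP target, had 42.6 TPM in replicate 1 and 29.8 TPM in replicate 2. Insig2, its paralog, had 23.0 TPM in replicate 1 and 21.2 TPM in replicate 2. The authors' TPM interval for Insig2 was wide and reached 63.8 TPM in replicate 1 and 54.9 TPM in replicate 2, above Scap in each.

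The enzymes from acetyl-CoA units to squalene had modest levels, between 8.43 and 46.3 TPM on average. Fdps, which makes farnesyl diphosphate, the branch point to sterols and protein prenylation, was the highest, with 52.8 TPM in replicate 1 and 39.9 TPM in replicate 2. Its expected counts were not whole numbers in either library, nor were those of Tm7sf2, Scd1 and Scd2, so some of their fragments were divided with other genes. Mvk, Mvd and Pmvk, which phosphorylate and decarboxylate mevalonate, had similar levels. Mvk had 21.5 TPM in replicate 1 and 16.3 TPM in replicate 2, Mvd had 21.9 and 19.7 TPM, and Pmvk had 16.8 and 17.95 TPM. The range of Mvk over the libraries overlapped both others, while Mvd lay above Pmvk in both libraries. Idi1, the isomerase of the isoprene unit, had 10.6 TPM in replicate 1 and 8.94 TPM in replicate 2. Hmgcs1 had 8.98 TPM in replicate 1 and 7.88 TPM in replicate 2. Fdft1, squalene synthase and the first step committed to sterols, had 8.51 TPM in replicate 1 and 8.77 TPM in replicate 2, within the range of Hmgcs1.

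From squalene to cholesterol the levels spread much more widely, from 3.56 to 202 TPM on average. Dhcr7, the reductase of a last step, had 212 TPM in replicate 1 and 193 TPM in replicate 2 and stood above every other sterol enzyme in both libraries. Ebp, the sterol isomerase, followed with 82.6 TPM in replicate 1 and 56.3 TPM in replicate 2, but it lay below Sc5d by CPM (counts per total, not divided by length) and below Fdps, Sc5d and Mvd on complete coding transcripts in both libraries. Sc5d, the desaturase that acts between them, had 45.4 TPM in replicate 1 and 39.1 TPM in replicate 2. Tm7sf2, the sterol reductase that follows lanosterol demethylation, had 39.5 TPM in replicate 1 and 45.0 TPM in replicate 2, overlapping Sc5d. By CPM and on complete coding transcripts, Tm7sf2 lay below Sc5d in both libraries. The early and demethylating steps were lower by TPM. By CPM, Lss (39.1 in replicate 1 and 32.4 in replicate 2) lay above Tm7sf2 (22.8 and 27.7). Lss, which closes the sterol rings, had 20.4 TPM in replicate 1 and 14.2 TPM in replicate 2. Sqle, squalene epoxidase and a known control point, had 11.5 TPM in replicate 1 and 10.4 TPM in replicate 2. Msmo1, Nsdhl and Hsd17b7 act in turn to remove methyl groups after Cyp51, the lanosterol demethylase. Msmo1 had 8.14 TPM in replicate 1 and 5.74 TPM in replicate 2, Nsdhl 7.52 and 7 TPM, Cyp51 5.72 and 4.54 TPM, and Hsd17b7, the lowest member, 4.03 and 3.08 TPM.

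Fatty acid synthesis was led by Fasn, the multi-domain synthase of palmitate, with 1368 TPM in replicate 1 and 708 TPM in replicate 2. Its mean of 1038 TPM lay at the 99.3 percentile of protein-coding genes at 1 TPM or more. Acly, which supplies acetyl-CoA from citrate, had 178 TPM in replicate 1 and 117 TPM in replicate 2. Of the acetyl-CoA carboxylases, Acaca, the cytosolic form used for synthesis, had 33.8 TPM in replicate 1 and 20.9 TPM in replicate 2. Acacb, the form at mitochondria that restrains fatty acid oxidation, had 20.4 TPM in replicate 1 and 15.8 TPM in replicate 2. The Acacb values lay below both Acaca values, with a narrow gap between the higher Acacb and the lower Acaca library.

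The desaturases and elongases, which tailor chain length and double bonds, were led by the stearoyl-CoA desaturases. Scd1 had 386 TPM in replicate 1 and 242 TPM in replicate 2, and Scd2 had 149 TPM in replicate 1 and 120 TPM in replicate 2. Elovl1, which extends very long saturated chains, had 106 TPM in replicate 1 and 122 TPM in replicate 2. Elovl5, which extends polyunsaturated chains, had 65.0 TPM in replicate 1 and 57.1 TPM in replicate 2. Elovl6, which extends palmitate to stearate, was the lowest of this group, with 9.70 TPM in replicate 1 and 6.08 TPM in replicate 2. Fads2 and Fads1 desaturate polyunsaturated chains. Fads2 had 46.1 TPM in replicate 1 and 35.2 TPM in replicate 2, and Fads1 had 21.4 TPM in replicate 1 and 17.3 TPM in replicate 2.

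**Figure D2:**
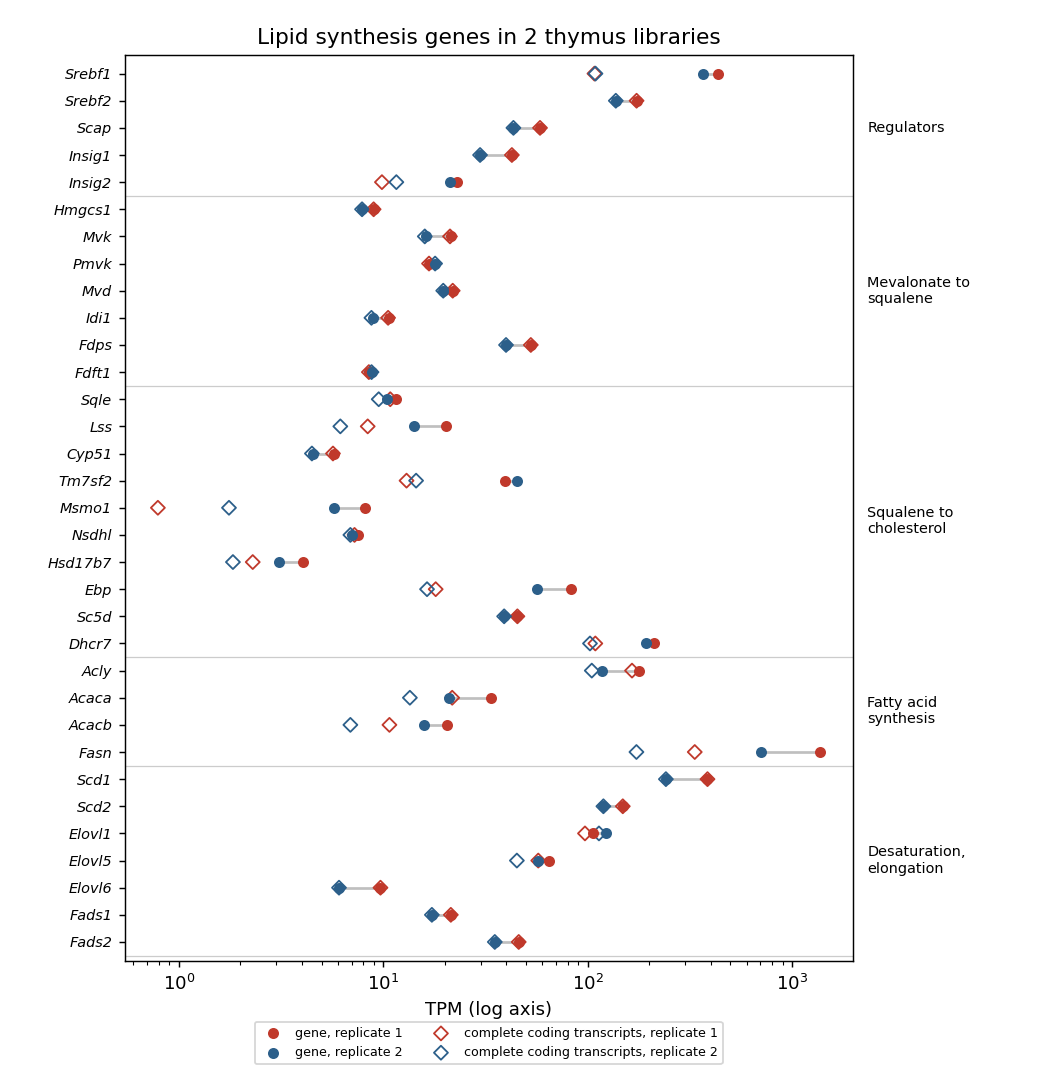
TPM of the 33 members in replicate 1 (red) and replicate 2 (blue) on a log axis. Filled circles give the gene, open diamonds the sum over its complete coding transcripts. Fasn is highest as a gene, and its diamonds lie at 335 and 173 TPM in replicates 1 and 2.

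Much of the level of some members lay on annotated transcripts that do not encode the whole protein. The deposited transcript tables held 146 transcripts for the 33 members, and a complete coding transcript was taken as one that GENCODE M21 classes as protein-coding with both ends found. In 20 members such transcripts held at least 90% of TPM in both libraries, and in 6 (Srebf1, Lss, Tm7sf2, Msmo1, Ebp and Fasn) under 50% in both. Over both libraries together, 8 of 33 members (24.2%) were under 50%, against 18.7% of the protein-coding genes at 1 TPM or more. The median share on complete coding transcripts was 98.5% for members and 95.2% for those genes. Of the Fasn gene, 2 short transcripts classed as retained introns, Fasn-202 (762 nt) and Fasn-203 (971 nt), held 45.6% and 29.9% of TPM in replicate 1 and 44.7% and 30.8% in replicate 2. The coding transcript Fasn-201 (9587 nt in the deposited tables) had 335 TPM in replicate 1 and 173 TPM in replicate 2, but it held 82.8% of Fasn's estimated fragments in both libraries. Most Fasn fragments lay on the coding transcript, while the short models carried most of the TPM, a value that is divided by length.

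Other members differed in how their fragments were divided. The retained intron transcript Ebp-204 (660 nt) held 72.7% of Ebp's TPM in replicate 1 and 63.7% in replicate 2, and the complete coding transcript of Ebp had 18.1 and 16.4 TPM in replicates 1 and 2, with 47.6% of the gene's fragments in replicate 1 and 56.6% in replicate 2. A short coding model of Dhcr7 (713 nt), of which an end was not found, held 45.0% of Dhcr7's TPM in replicate 1 and 35.3% in replicate 2. On complete coding transcripts, Dhcr7 had 109 TPM in replicate 1 and 103 TPM in replicate 2 and was still the highest sterol enzyme in both libraries. Of Srebf1, complete coding transcripts had 108 TPM in replicate 1 and 109 TPM in replicate 2, against 174 and 138 TPM for Srebf2, so the order of the 2 SREBP genes turned round on this measure. Srebf1-203, a coding model without its start, had a further 80.0 TPM in replicate 1 and 64.6 TPM in replicate 2. All Srebf1 coding models with an end not found held 100.1 TPM in replicate 1 and 79.7 TPM in replicate 2. With these added, Srebf1 lay above Srebf2 in both libraries, so the order depends on which models are annotated as complete. Msmo1 was the only member whose leading transcript differed between libraries, and its complete coding transcript had 0.79 TPM in replicate 1 and 1.76 TPM in replicate 2. Non-coding models held most Msmo1 fragments, 84.04% in replicate 1 and 64.6% in replicate 2. Acly had a pair of long coding transcripts, Acly-201 with 54.0% of the gene's TPM in replicate 1, against 49.8% in replicate 2, and Acly-203 with 26.95% in replicate 1, against 32.6% in replicate 2. On complete coding transcripts, the highest members were Scd1 (314 TPM on average), Fasn (254 TPM), Srebf2 (156 TPM), Acly (135 TPM) and Scd2 (134 TPM).

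**Figure D3:**
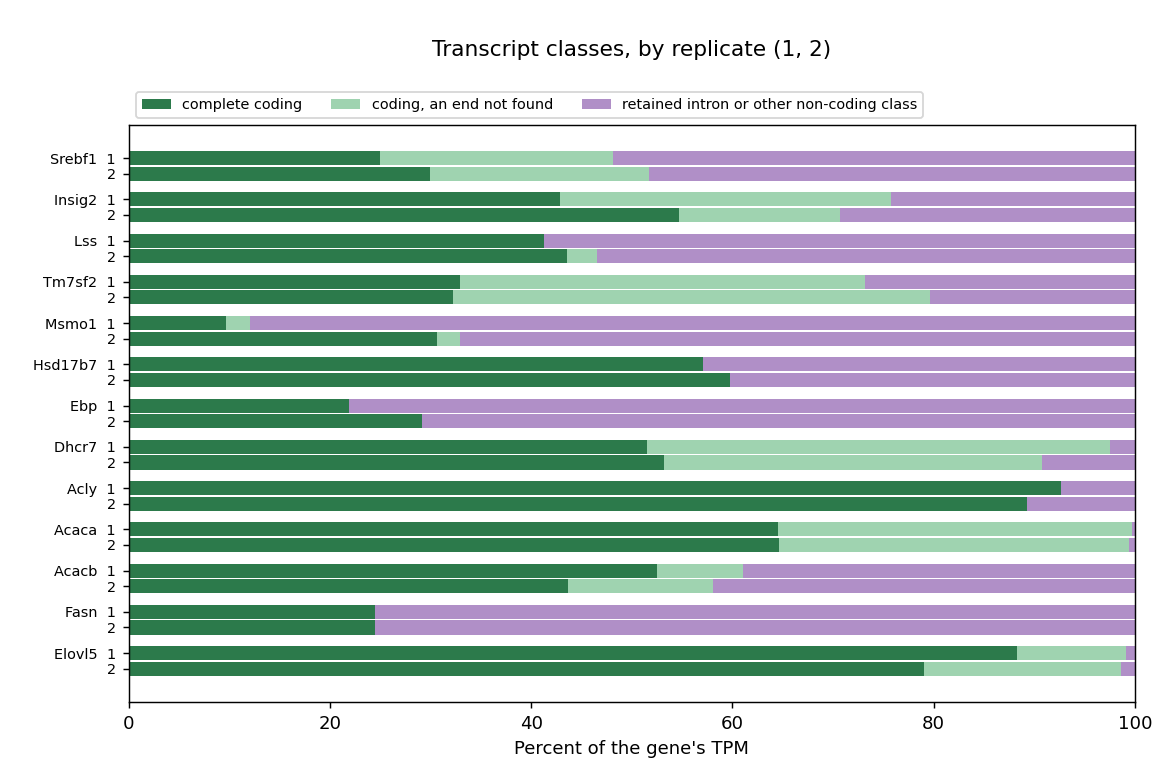
Percent of each gene's TPM on complete coding transcripts (dark green), coding transcripts with an end not found (light green) and retained intron or other non-coding classes (purple), for members under 90% complete coding in either library. Replicate 1 is the upper bar of each pair; Fasn has 24.5% on complete coding transcripts in both.

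Most members stood higher in replicate 1 than in replicate 2. By TPM with a pseudocount of 0.1, 29 of 33 members were higher in replicate 1, where 55.7% of 14360 genes at 1 TPM or more were. The members' median log2 ratio was 0.33 (1.25-fold), against 0.04 over all those genes. The 95% interval of the TPM ratio, which takes the counting error of the fragments and holds the deposited lengths fixed, lay wholly above 1 for 28 members and wholly below 1 for 2, Tm7sf2 and Elovl1. Pmvk, Fdft1 and Nsdhl had intervals that held 1. By CPM, Insig2, Msmo1 and Dhcr7, with intervals above 1, were lower in replicate 1. These intervals do not measure how much libraries of 1 tissue vary.

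At 1.5-fold, 5 of 33 members were higher in replicate 1 and none was lower. The background was 12% of the 14360 genes in either direction, with 5.65% higher and 6.35% lower in replicate 1. At 10 TPM or more, 4 of 25 members passed, against a background of 6.74%. The 5 members were all fatty acid enzymes. The ratio of replicate 1 to replicate 2 was 1.93 for Fasn (interval 1.91 to 1.95), 1.61 for Acaca (1.56 to 1.67), 1.60 for Scd1 (1.58 to 1.62), 1.60 for Elovl6 (1.49 to 1.70) and 1.52 for Acly (1.49 to 1.55). No member passed 2-fold, which 4.23% of all genes did. Among sterol enzymes the ratios lay between 0.88 for Tm7sf2 and 1.47 for Ebp, with a median log2 ratio of 0.22, beside 0.39 for the 11 fatty acid enzymes. No test of the difference between these lists was made. Expressed as CPM, Fasn alone passed 1.5-fold, against 10.1% of all genes on that scale. On it, 25 of 33 members were higher in replicate 1 and the median log2 ratio was 0.20, against -0.07 for all genes. On complete coding transcripts, Fasn kept a ratio of 1.93, while that of Msmo1 was 0.45 instead of 1.42.

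Genes of other cell types also differed between the libraries. Of 12 fat genes, all at 1 TPM or more, the summed level was 1908 TPM in replicate 1 and 1533 TPM in replicate 2, with none at 0. Only 7 of the 12 were higher in replicate 1, and their median log2 ratio over the 12 was 0.14. Ucp1, the uncoupler of brown fat, had 346 TPM in replicate 1 and 124 TPM in replicate 2, Cfd had 819.8 and 680.2 TPM, Car3 258 and 295 TPM, and Lep, the hormone of white fat, 1.09 and 2.41 TPM. The 12 proliferation genes were all higher in replicate 1, with sums of 2217 TPM in replicate 1 and 1483 TPM in replicate 2 and a median log2 ratio of 0.57. Among them Rrm2 had 139 TPM in replicate 1 and 61.0 TPM in replicate 2, Ccna2 299 and 153 TPM, Pcna 394 and 301 TPM, and Ube2c 364 and 258 TPM. Of 12 liver genes, 8 reached 1 TPM, and 6 of these passed 2-fold, all higher in replicate 1. Alb had 44.2 TPM in replicate 1 and 0.18 TPM in replicate 2, Apoa2 41.4 and 1.46 TPM, Ahsg 25.1 and 1.37 TPM, Serpina1b 12.99 and 1.25 TPM, Apoa1 10.95 and 2.60 TPM, and Serpina1a 8.72 and 0.86 TPM. The liver sum was 320 TPM in replicate 1 and 133 TPM in replicate 2, of which Trf, not specific to liver, gave 164 and 116 TPM, and Mup3 had no fragment in replicate 2. The 12 thymocyte genes summed to 7115 and 6733 TPM in replicates 1 and 2, of which Tcf7 gave 2747 and 2299 TPM. Of the 12, 8 were higher in replicate 1, with a median log2 ratio of 0.02. Epithelial genes (10) summed to 1586 and 2084 TPM in replicates 1 and 2, led by Prss16, Ccl21a and Krt8, and macrophage genes (10) to 1067 and 1441 TPM, led by Lyz2, C1qc and C1qb. Genes of fibroblasts and endothelium (10), led by Acta2, Dcn and Pecam1, summed to 267 and 302 TPM in replicates 1 and 2, and erythroid genes (7), led by Hba-a2, Hbb-bs and Hba-a1, to 4495 and 5463 TPM. The part of fat, liver, dividing and other cells in the members' ratios was not tested.

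**Figure D4:**
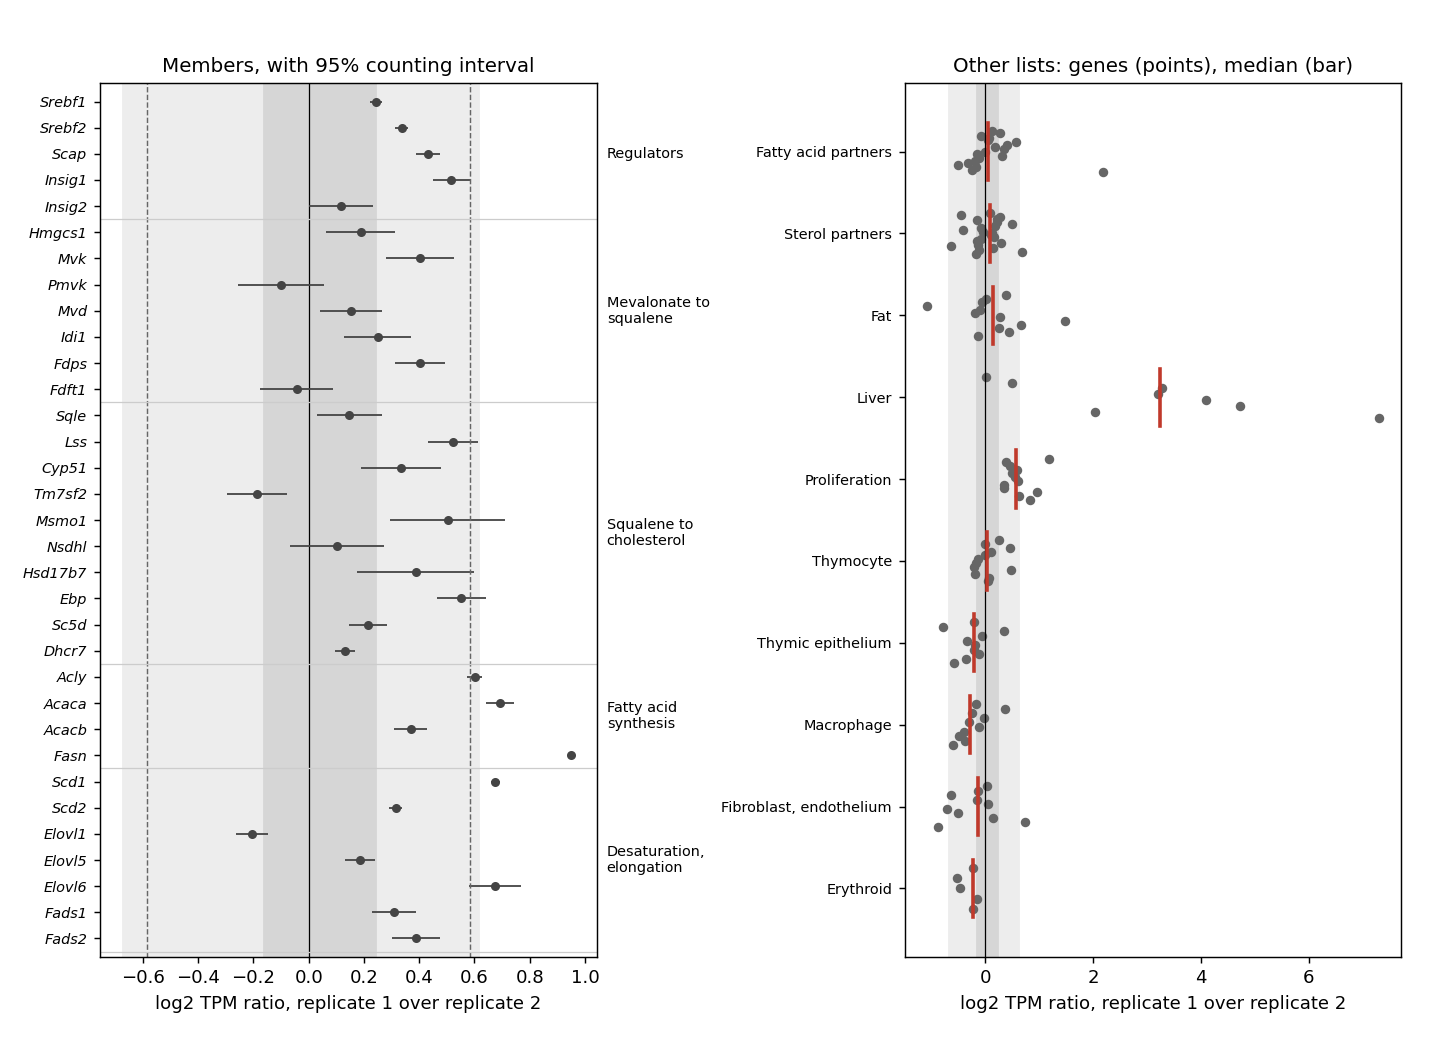
Log2 TPM ratios of replicate 1 over replicate 2, for members with 95% counting intervals (left) and for genes of other lists at 1 TPM or more (points, right, with the list median as a red bar). Grey bands hold the middle 50% and 90% of 14360 genes, dashed lines mark 1.5-fold. Most members lie right of 0, Fasn farthest, and liver and proliferation genes lie right of 0 as well.

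Other genes of the pathways were listed apart from the members. Of 24 partners of fatty acid synthesis, 19 reached 1 TPM, of which 10 were higher in replicate 1, with a median log2 ratio of 0.05, and 1 passed 1.5-fold. That gene, Elovl3, an elongase of brown fat and skin, had 1.76 TPM in replicate 1 and 0.31 TPM in replicate 2, from 79 and 19 fragments. Tecr, the last reductase of the elongation cycle, had 286 TPM in replicate 1 and 309 TPM in replicate 2, and was above every elongase among the members. Thrsp, a lipogenic gene of fat and liver, had 136 TPM in replicate 1 and 91.2 TPM in replicate 2, and Slc25a1, the mitochondrial citrate carrier that feeds Acly, had 126 and 98.7 TPM. Of 23 sterol partners, all at 1 TPM or more, 12 were higher in replicate 1, with a median log2 ratio of 0.08, 1 passed 1.5-fold upward (Acat2, 16.7 TPM in replicate 1 and 10.3 TPM in replicate 2) and 1 downward (Stard4, 4.78 and 7.50 TPM). Acat2, which joins acetyl-CoA units ahead of Hmgcs1, and Stard4, a sterol carrier, are named for their values. The highest were Nr1h2, an oxysterol receptor, with 248 TPM in replicate 1 and 228 TPM in replicate 2, Npc2, which moves cholesterol out of lysosomes, with 134 and 150 TPM, and Abcg1, a cholesterol exporter, with 136 and 121 TPM.

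Within 6 pairs of related members, the order of the levels was the same in both libraries by TPM. Srebf2 over Srebf1 was 0.40 in replicate 1 and 0.38 in replicate 2, Scd2 over Scd1 0.39 and 0.49, and Fads1 over Fads2 0.47 and 0.49. Insig1 over Insig2 was 1.85 in replicate 1 and 1.40 in replicate 2, Acaca over Acacb 1.65 and 1.32, and Elovl5 over Elovl6 6.70 and 9.39. The order of Scd1 and Scd2, of Acaca and Acacb and of Elovl5 and Elovl6 also held by CPM, by posterior mean TPM and on complete coding transcripts. Fads1 over Fads2 turned to 1.17 and 1.23 in replicates 1 and 2 by CPM, which does not divide by length. Insig1 over Insig2 was 1.12 in replicate 1 and 0.89 in replicate 2 by posterior mean TPM, so the order of the Insig genes differed between the libraries on that measure.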

How the data were processed

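Polyadenylated RNA longer than 200 nucleotides was sequenced as stranded paired reads of 76 bases, per the labels. The authors deposited, per library, expected counts (estimated fragments, not normalised), TPM per gene and transcript, posterior mean TPM and the percent of gene TPM held by each transcript, on mm10 with GENCODE M4 per the deposited text files. The aligner and quantifier were not given in the sources used here. Contig and junction lists on mm9 were not used here.

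Symbols, positions and transcript classes came from GENCODE M21 (GRCm38), matched on identifiers without versions. Of 43346 genes, 42462 had a symbol, and 132 of 133 symbols of the 10 other lists matched. Members and lists were chosen with earlier results of these data known. All 33 members are named. From other lists, the 3 highest genes and those past 2-fold at 1 TPM or more are named. Ratios are log2((TPM + 0.1) of replicate 1 over replicate 2), which understates low genes, over genes averaging 1 TPM or more. Intervals are exact binomial on rounded counts, scaled to the TPM ratio. Alternatives were CPM, edgeR TMM (counts kept by filterByExpr), DESeq2 size factors, other pseudocounts and filters, and, chosen after seeing the data, complete coding transcripts. The ratio procedure was tested on simulated counts with counting noise only, which leaves out the larger spread between these libraries and the estimation of TPM. The median chi-square between the libraries over 14794 genes was 8.93, against 0.455 for sampling noise, so they were not 1 library deposited as a pair, which does not show that the animals differed. Normalisation used DESeq2 1.42.0 and edgeR 4.0.16 in R 4.3.3. All else used scipy 1.17.1, pandas 2.3.3, numpy 2.4.6 and matplotlib 3.10.9 in Python 3.11.15.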

Additional observations from a re-analysis of the deposited data

How the results depend on the processing

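Levels and ratios between genes moved with length scaling and with the choice of transcripts. The members' median of 27.3 TPM was 37.7 as CPM and 21.2 to 33.8 with 1 library left out. Of all TPM, sterol enzymes held 0.0538%, but 0.0342% on complete coding transcripts and 0.0703% of protein-coding nuclear genes. Fatty acid enzymes held 0.192%, but 0.459% as CPM and 0.109% on complete coding transcripts. Regulators held 0.0664%, but 0.143% as CPM, 0.0362% on complete coding transcripts and 0.0867% of protein-coding nuclear genes. The shares of these lists on complete coding transcripts were still taken of all TPM. Over the 14360 genes at 1 TPM or more, complete coding transcripts held 609537 of 973727 TPM in replicate 1. They held 587136 of 975371 TPM in replicate 2, so the sum over all these genes fell as well. Leaving out 1 library gave 0.0498 to 0.0578%, 0.146 to 0.238% and 0.0597 to 0.0731% for these lists.

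Members past 1.5-fold numbered 5, and 1 as CPM, where the median log2 ratio was 0.20 instead of 0.33. With TMM or DESeq2 size factors, 4 passed, without Acly, and on complete coding transcripts 7, with Acacb and, lower in replicate 1, Msmo1. Of all genes, 12% passed by TPM, 10.1% as CPM, 9.76% with TMM and 9.44% on complete coding transcripts. The log2 ratio of Srebf2 over Srebf1, -1.36 by TPM, was -0.23 as CPM and 0.51 on complete coding transcripts. That of Insig1 over Insig2, 0.69, was 1.58 as CPM, -0.000495 by posterior mean TPM and 1.74 on complete coding transcripts. That of Fads1 over Fads2, -1.06, was 0.26 as CPM, that of Elovl5 over Elovl6, 2.99, was 1.61 as CPM, and that of Acaca over Acacb, 0.56, was 0.99 on complete coding transcripts. CPM leaves out the division by length. For the 5 members past 1.5-fold by TPM, the lengths used were nearly the same in both libraries. Those of Fasn were 2768 bases in replicate 1 and 2771 bases in replicate 2. The log2 ratios of Fasn, Acaca, Scd1, Elovl6 and Acly were 0.95, 0.69, 0.68, 0.67 and 0.60 by TPM. As CPM they were 0.83, 0.57, 0.56, 0.55 and 0.48. Over all genes, the median log2 ratio of replicate 1 to replicate 2 was lower by a similar step as CPM, at -0.07 instead of 0.04. The cause of this shift was not tested. No paired analysis was possible because the series holds 1 group. With 2 libraries, the spread between animals could not be estimated.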
